A study of Mus musculus with 4 samples.

Results

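Axon guidance ligands and receptors were followed across the cell classes of the mouse digit. They were taken by symbol from the gene table of the deposited counts: the semaphorins of classes 3 to 7, the plexins, the netrins, the Unc5 receptors, the Slits, the Robos, the Eph receptors and the ephrins. This gave 66 of the 33696 listed genes, namely 7 class 3 semaphorins, 13 other semaphorins, 9 plexins, 8 netrins and Unc5 receptors, 7 Slits and Robos, 14 Eph receptors and 8 ephrins. Over all 4 libraries, 64 of them had at least 50 unique molecular identifiers (UMIs, each standing for 1 captured transcript). The other 2 were nearly undetected, Robo3 with 14 UMIs and Epha8 with 6.

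These families were first described in growing axons, which they attract or repel. Class 3 semaphorins are secreted and act through plexins, most of them with a neuropilin as the ligand-binding partner, whereas most other semaphorins are anchored in the membrane and bind plexins directly. Netrins act through Dcc, neogenin and the Unc5 receptors, Slits act through Robos, and ephrins and Eph receptors are both held on cell surfaces so that each signals at contacts between cells. The same genes guide vessels: ephrin-B2 and EphB4 mark arteries and veins, Plxnd1 and Robo4 are receptors of endothelial cells, and Efnb2 takes part in the growth and valves of lymphatic vessels. Schwann cells wrap the axons of the digit, and they too carry semaphorins and plexins.

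Digits of female C57BL/6 mice were profiled by 10x Genomics 3' single-cell RNA-Seq in 2 experiments. In the first, 1 library came from mice whose chow held 30 mg/kg of the VEGFR3 inhibitor SAR131675, for 8 days by the labels, and 1 from mice on the matched control chow. In the second, 1 library came from digits after lymph node removal (LNR) and 1 from the sham group, which the labels record as untreated. In the study's text the nodes were taken from 1 limb and the opposite limb of the animal served as sham, so that these libraries may share mice. By its methods the tip of the terminal phalanx had been amputated. Every library pooled the hindlimb digits of 10 mice aged 6 to 8 weeks, so that there was 1 library per condition and no measure of the spread between animals. The labels also number the libraries as batches 1 to 4, and batch and condition therefore cannot be told apart. The study's text and the legend of a supplemental figure place the SAR131675 samples at 8 days after amputation, and the legend of a main figure at 5 days. Its methods start the chow 5 days before amputation. The labels give no time for LNR and sham, for which the text speaks of LEC gene expression at 8 days. VEGFR3 is carried by lymphatic endothelial cells and by some blood vessels, and the inhibitor was given to the whole animal in its food.

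After filtering, 29076 SAR131675 diet, 24030 control diet, 19827 LNR and 20669 sham cells were kept, with median depths of 11316, 10712, 5725 and 5851 UMIs. The guidance genes held 0.244%, 0.235%, 0.103% and 0.101% of all UMIs in that order. The 2 pairs were processed with different versions of Cell Ranger (8.0.1 for the diets, 6.1.2 for LNR and sham), and their levels are set side by side below without being compared. The gap between them was widest in long genes. Among 28 guidance genes spanning over 100 kb, the median log2 ratio of control diet over sham was 1.67, beside 1.78 for all 2287 such genes, whereas the 20 guidance genes under 20 kb had 0.207 beside 0.123. Of the barcodes, 348 were shared by the 2 diet libraries (1.13% of the smaller) and 130 by LNR and sham (0.600%), against 0 to 3 across the pairs.

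Cells were clustered without the guidance genes and clusters were named "X-like" from marker lists. There were 20 classes with at least 30 cells in every library. Lymphatic endothelial cell (LEC)-like cells numbered 244, 249, 224 and 215 in the order SAR131675 diet, control diet, LNR and sham, blood endothelial-like cells 782, 637, 731 and 771, and Schwann-like cells 305, 183, 105 and 116. All 10 LEC markers, all 11 blood endothelial markers and all 13 Schwann markers were detected in their own class in every library. Since the classes were named from these lists, this is no independent evidence. The blood endothelial markers Kdr, Tie1 and Cldn5 were highest in LEC-like cells in every library, and the Schwann marker S100b in sweat gland-like cells. The LEC marker Lyve1 was highest in macrophage-like cells of the LNR library. No class was named as neurons. Of 7 neuron markers, Rbfox3, Nefl, Elavl4 and Syt1 had 0 UMIs in the Schwann-like cells of all 4 libraries, Snap25 had 1 UMI, Prph had 6, 4, 0 and 1 and Tubb3, a tubulin that other cells carry too, had 102, 83, 6 and 11. Over all kept cells each of the 7 had UMIs, among them Tubb3 with 2939, 2511, 542 and 578, Rbfox3 with 46, 32, 11 and 10 UMIs and Syt1 with 149, 78, 22 and 13. Nerve is represented below by the Schwann-like cells, which are glia. Levels are CPM, the UMIs of a gene scaled to a total of 1000000 UMIs for each class in a library. Brackets give exact 95% intervals that cover counting error only, and values in a row of 4 follow the order SAR131675 diet, control diet, LNR and sham.

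Of the 64 measured guidance genes, 36 (56.25%) had their highest level in the same class in all 4 libraries. Among all 21245 genes with at least 50 UMIs, 27.3% did. These genes were not matched to the guidance genes for abundance, so that the 2 shares are not a like comparison. The lymphatic, blood endothelial and Schwann-like classes led 18 of the 36. LEC-like cells led 6 guidance genes (9.38% of those measured, beside 1.54% of all genes), blood endothelial-like cells 5 (7.81% beside 1.34%) and Schwann-like cells 7 (10.9% beside 2.26%). Dermal papilla and nail mesenchyme-like cells led 5 (7.81% beside 1.08%) and granular keratinocyte-like cells 4 (6.25% beside 2.84%). Osteoblast-like cells led 3 (4.69% beside 0.687%) and dendritic-like cells 2 (3.125% beside 0.612%). Langerhans-, macrophage-, pericyte and smooth muscle- and synovial lining-like cells led 1 each (1.56%), beside 0.546%, 1.53%, 1.93% and 0.692% of all genes.

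**Figure D1:**
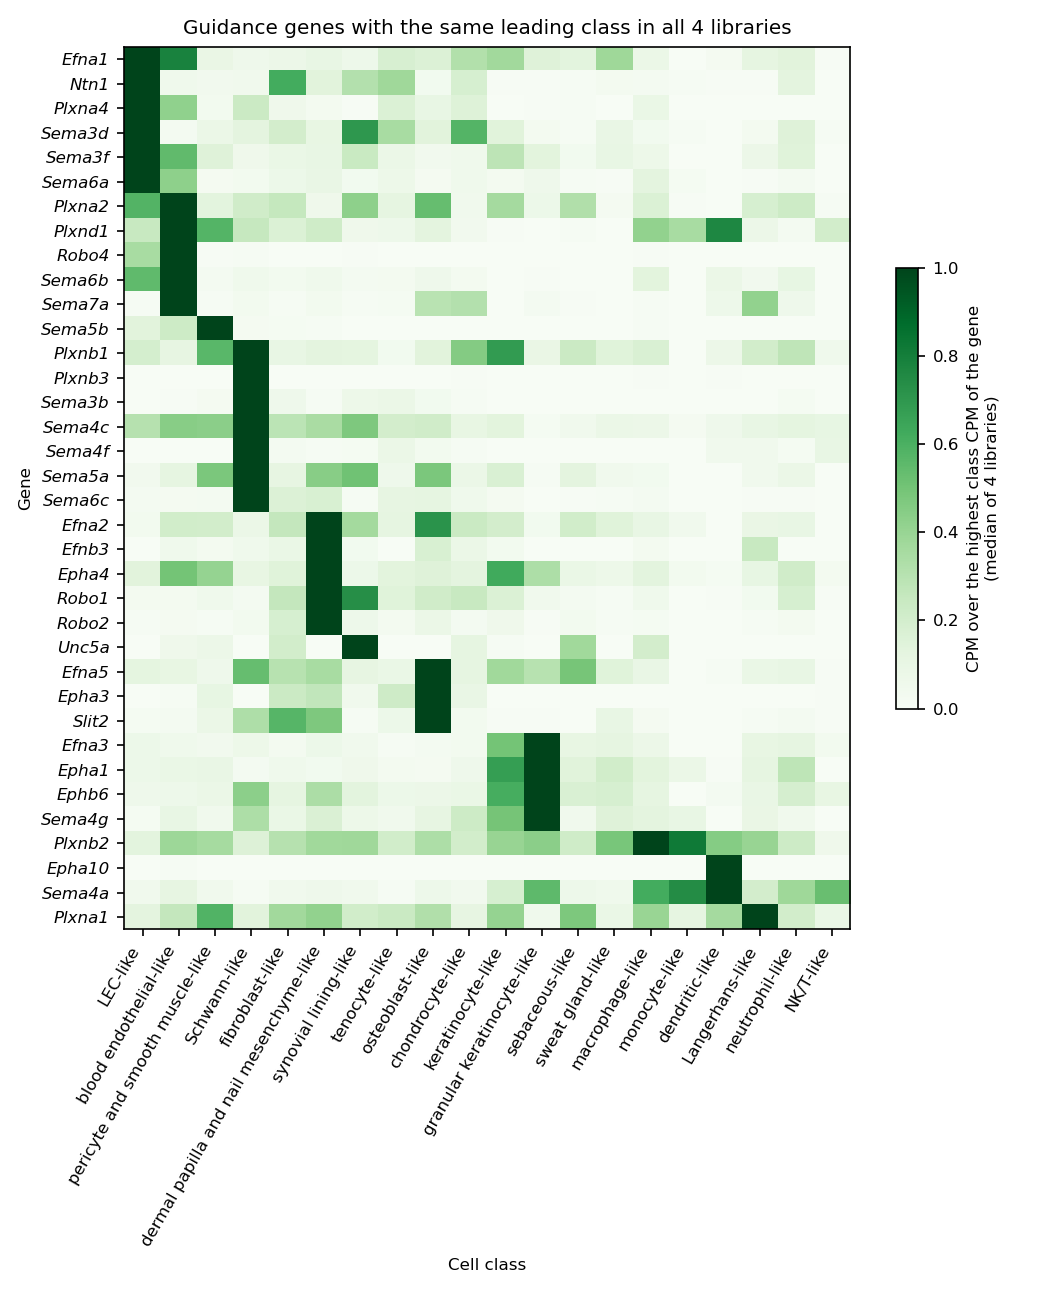
Level of each of the 36 guidance genes that had 1 leading class in all 4 libraries (vertical axis, grouped by that class) in the 20 cell classes (horizontal axis). Color is the CPM of a class divided by the highest class CPM of the gene, as the median of 4 libraries; the blocks of LEC-, blood endothelial- and Schwann-like cells at the upper left hold 6, 5 and 7 genes.

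The LEC-like cells carried secreted and membrane ligands of several families, together with receptors for them. Sema3d, a secreted semaphorin known to repel endothelial cells, stood at 602, 523, 317 and 308 CPM in LEC-like cells. In blood endothelial-like cells the same gene was at 13.7, 11.6, 10.1 and 13.3 CPM, so that the 2 vessel types did not overlap in any library. Sema3d was not particular to the LEC-like cells. Synovial lining-like cells had 265, 506, 206 and 231 CPM of it, close to the LEC-like level in the control diet library. A fibroblast-like cluster of LNR and sham, described at the end, was above the LEC-like cells. Ntn1, the founding netrin, was at 774, 837, 443 and 428 CPM in LEC-like cells and at 36.1, 42.3, 22.9 and 23.3 in blood endothelial-like cells. Fibroblast-like cells were next for Ntn1, at 378, 401, 331 and 322 CPM. Ntn1 and Sema3d also belong to a list by which the study itself described LECs, so that their place here is no independent evidence.

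Sema3a, the first semaphorin known to collapse growth cones, had no single leading class, since the synovial lining-like cells were higher in 3 libraries. Of the 2 vessel types it was found mainly in the LEC-like cells, at 373, 362, 121 and 99.5 CPM, with 3.8, 1.49, 1.03 and 2.5 in blood endothelial-like cells. Sema6a, a membrane ligand of A-type plexins, was carried by both vessel types. It stood at 1034, 1054, 166 and 196 CPM in LEC-like cells and at 454, 441, 81.4 and 77.9 in blood endothelial-like cells. Sema3f was at 80.5, 70.6, 135 and 116 CPM in LEC-like and at 53.3, 51.6, 55.4 and 49.6 in blood endothelial-like cells. Efna1, an ephrin of endothelial cells, was carried by both vessel types as well, with 196, 165, 113 and 103 CPM against 143, 143, 87.1 and 82.1.

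Of the receptors, Plxna4 was led by the LEC-like cells, with 447, 423, 76.7 and 69.1 CPM. This class held 18.6%, 19.5%, 21.8% and 17.1% of all Plxna4 UMIs while making up 0.839% to 1.13% of the kept cells. Plxna4 was not particular to the LEC-like cells, since the more numerous blood endothelial-like cells had 189, 226, 25.3 and 28.5 CPM of it. Unc5b, a netrin receptor of endothelial tip cells, was at 79.9, 73.1, 82.2 and 73.5 CPM in LEC-like cells, and at 15.7, 18.5, 16 and 17 in blood endothelial-like cells. LEC-like cells led Unc5b in the sham library alone. Osteoblast-like cells were higher in the diet libraries (100.1 and 108 CPM), and NK/T-like cells in LNR (86.1 CPM on 17 UMIs). The netrin co-receptor Dcc had 0 UMIs in the LEC-like cells of every library. The 2 neuropilins were split: Nrp2 stood at 422, 371, 207 and 227 CPM in LEC-like cells, and Nrp1 at 1.92, 5.09, 6.26 and 3.59, although blood endothelial-like cells had 445, 426, 244 and 229 CPM of Nrp1.

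Some guidance genes were at or near 0 in the LEC-like cells. Sema3g had 0 UMIs in them in 3 libraries and 0.783 CPM in the LNR library, Sema7a was at 1.92, 1.27, 0 and 0.897 CPM, and Sema4f had 0 UMIs in all 4. Epha3 and Ephb2 were at 0 in 3 libraries each and at 0.897 CPM in the sham library. A count of 0 allows a level of up to 3 UMIs, or 1.91 to 2.69 CPM in this class.

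The blood endothelial-led genes were mostly receptors. Robo4, the endothelial Robo, was the one nearest to a marker, at 78, 105, 78.9 and 86.6 CPM in blood endothelial-like cells, which held 92.1%, 90.5%, 79.3% and 82.6% of its UMIs. LEC-like cells came next with 16.6, 28.6, 33.7 and 36.8 CPM. Plxnd1, the receptor of Sema3e, was at 203, 200, 195 and 180 CPM, and at 55.6, 35, 41.5 and 52 in LEC-like cells. Plxna2 stood at 325, 385, 77.6 and 75.9 CPM and Sema6b at 37.2, 44.6, 28.9 and 28.3. Sema7a, a semaphorin tied to the cell surface by a lipid anchor, was at 166, 184, 62.4 and 58.6 CPM, and its receptor Plxnc1 was at 1 to 3.36 CPM in the same cells.

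Promoter sequence from RefSeq (GRCm38.p6) was held for 57 of the 66 genes. The data were aligned to GRCm39 by the labels, so that these positions belong to the RefSeq table and not to the counts. Shown are the 250 bases before the transcript start of Plxnd1 and Robo4, receptors led by the blood endothelial-like cells, and of Sema3d, a secreted ligand led by the LEC-like cells. They lie at chr6:115995006-115995255 on the minus strand (Plxnd1), at chr9:37401722-37401971 on the plus strand (Robo4) and at chr5:12382916-12383165 on the plus strand (Sema3d). Each runs 5′ to 3′ on the strand of the gene, and capitals mark every match, on either strand, to 5 core motifs of factors known in endothelial cells, namely GGAAG for ETS factors, TGTTTAC for FOX factors, AACAAT for SOX factors, AGATAA for GATA factors and AGGTCA for nuclear receptors.

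Plxnd1: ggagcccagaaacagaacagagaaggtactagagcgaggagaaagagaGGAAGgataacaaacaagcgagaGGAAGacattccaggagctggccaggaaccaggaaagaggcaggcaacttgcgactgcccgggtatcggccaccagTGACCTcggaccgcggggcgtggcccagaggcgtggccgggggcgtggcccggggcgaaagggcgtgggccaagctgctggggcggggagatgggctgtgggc
Robo4: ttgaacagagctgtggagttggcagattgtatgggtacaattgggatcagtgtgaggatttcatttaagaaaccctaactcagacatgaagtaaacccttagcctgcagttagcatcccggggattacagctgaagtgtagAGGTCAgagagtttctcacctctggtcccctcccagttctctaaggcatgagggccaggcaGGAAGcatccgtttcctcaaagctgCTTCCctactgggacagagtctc
Sema3d: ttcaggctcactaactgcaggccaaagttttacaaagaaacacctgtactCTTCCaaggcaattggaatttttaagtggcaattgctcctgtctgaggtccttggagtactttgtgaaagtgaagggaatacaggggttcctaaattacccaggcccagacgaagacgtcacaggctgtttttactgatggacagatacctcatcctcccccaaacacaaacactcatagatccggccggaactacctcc

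Plxnd1 and Robo4 each held 2 matches to the ETS core and 1 to the nuclear receptor core, and Sema3d held 1 ETS match. The ETS core is short and was found in 64.1% of all 32851 RefSeq promoters of this length, the nuclear receptor core in 14.0%, GATA in 9.99%, SOX in 9.42% and FOX in 3.17%. Plxna2 and Sema7a, led by the same class as Plxnd1 and Robo4, held none of the 5. A match states only that these letters stand in this window.

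**Figure D2:**
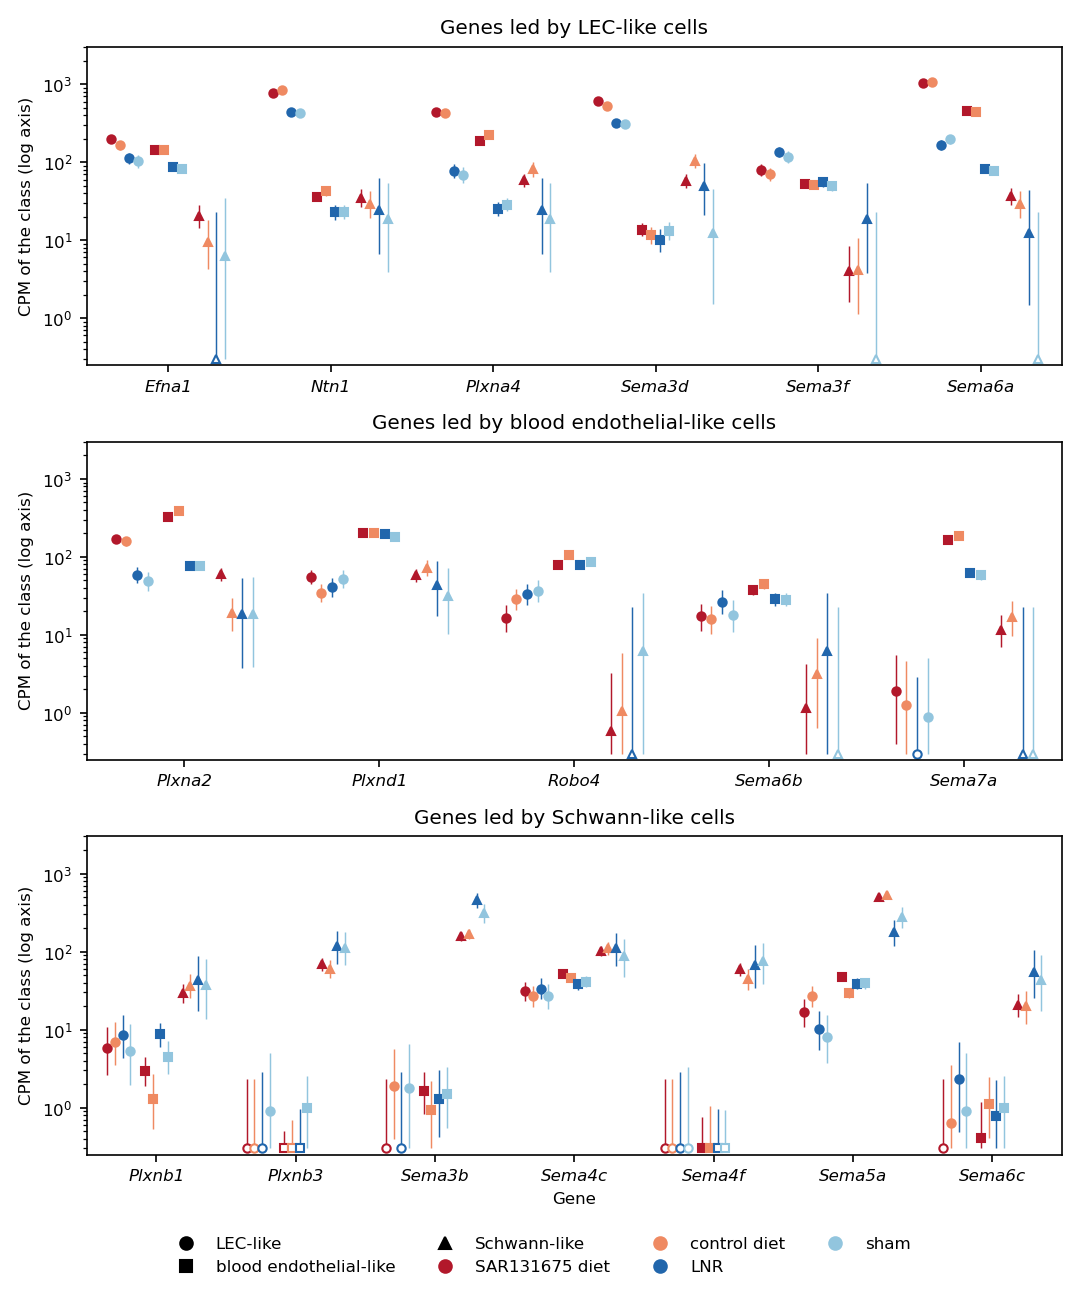
CPM on a log axis of the genes led by LEC-like (6, top), blood endothelial-like (5, middle) and Schwann-like cells (7, bottom), in these 3 classes (marker shape) and 4 libraries (color), with exact 95% Poisson intervals; open symbols are 0 UMIs and values under 0.3 CPM are drawn at 0.3. Sema3d and Ntn1 separate LEC-like from blood endothelial-like cells in every library, and Plxnb3 and Sema4f are near 0 in both vessel classes.

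Sub-clusters of the blood endothelial-like cells were named from arterial, capillary and venous markers. There were 57, 39, 58 and 70 arterial-like, 181, 154, 155 and 151 capillary-like and 250, 207, 185 and 170 venous-like cells. Sub-clusters whose leading genes marked other classes took no name, among them 95 and 96 cells of LNR and sham led by the pericyte genes Pdgfrb and Rgs5 and 74 and 118 led by Acta2 and Myh11 of smooth muscle. The arterial-like cells of LNR and sham were led within the class by hemoglobin genes beside Gkn3 and Sema3g, and kept their name. Efnb2 followed the vessel type, at 550.2, 378, 317 and 316 CPM in arterial-like, 163, 147, 78.5 and 102 in capillary-like and 62.7, 39.3, 48.5 and 37.2 in venous-like cells. Its receptor Ephb4 had no such order, with 154, 151, 132 and 94.5 CPM in venous-like and 150.0, 102, 68.9 and 111 in arterial-like cells. Sema3g, a secreted semaphorin of arteries, was at 659, 678, 537 and 522 CPM in arterial-like, 33.6, 51.7, 26.2 and 31.8 in capillary-like and 3.53, 1.11, 0 and 1.55 in venous-like cells.

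Sema7a was low in the venous-like cells, at 22.1, 21.6, 2.77 and 7.75 CPM, beside 311, 288, 165 and 179 in arterial-like and 297, 327, 189 and 136 in capillary-like cells. Epha4 was higher in arterial-like cells (338, 238, 75.8 and 84.3 CPM) than in capillary-like (94.3, 88.6, 26.2 and 38.2) or venous-like cells (109, 108, 48.5 and 45). Robo4 was lower in arterial-like (42.9, 52.3, 48.2 and 52.7 CPM) than in venous-like cells (87.8, 124, 99.9 and 118). For both genes the intervals of arterial-like and venous-like cells were apart in the diet libraries and overlapped in LNR and sham. The Plxnd1 levels lay between 155 and 268 CPM over the 3 types and 4 libraries. The LEC-like cells carried both partners of the ephrin-B2 pair, with 299, 261, 258 and 258 CPM of Efnb2 and 125, 116, 109.6 and 106 of Ephb4.

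**Figure D3:**
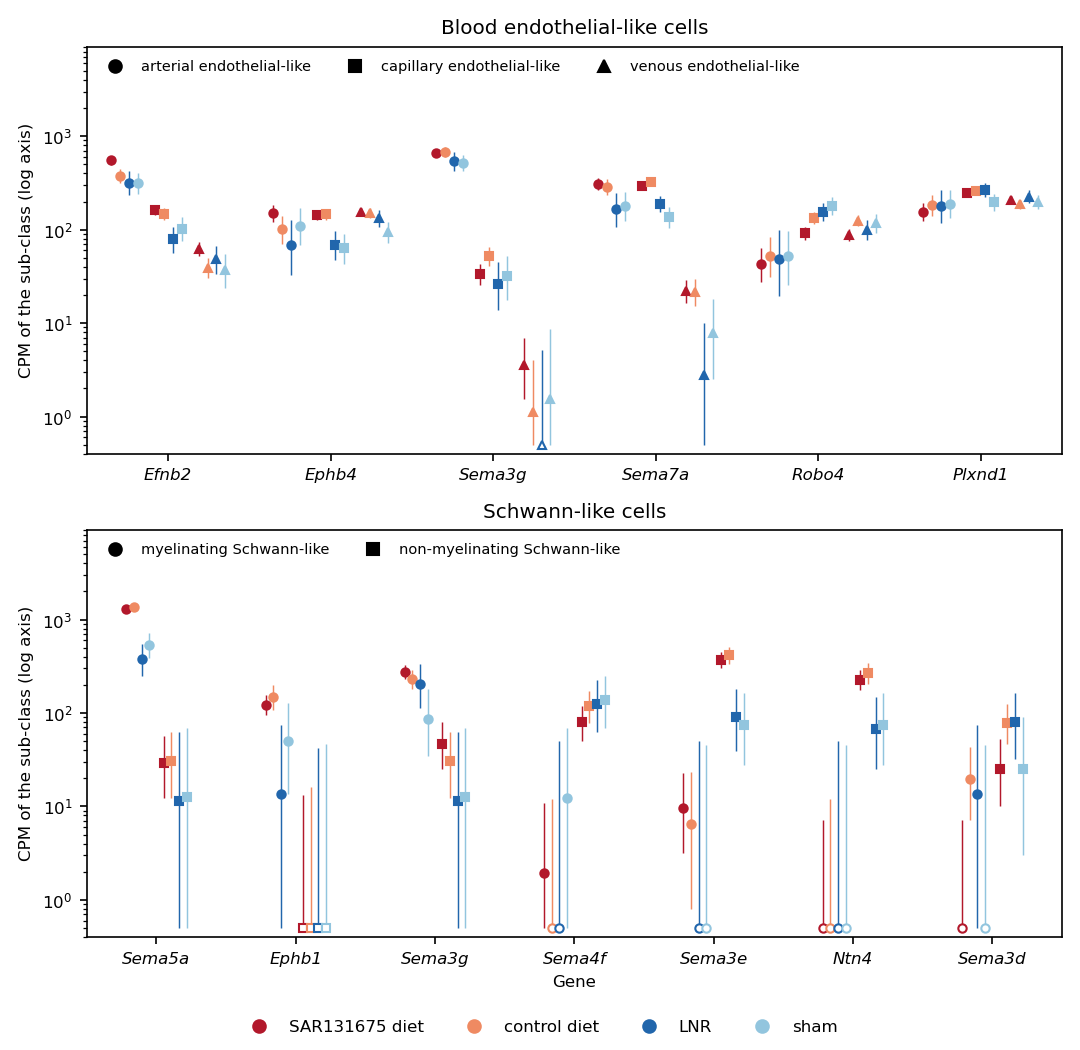
CPM on a log axis (vertical) of guidance genes (horizontal) in arterial-, capillary- and venous-like cells (top) and in myelinating and non-myelinating Schwann-like cells (bottom), by library (color) and sub-class (marker shape), with exact 95% Poisson intervals and 0 UMIs as open symbols. Efnb2 and Sema3g step down from arterial- to venous-like cells in every library, whereas Ephb4 does not.

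The Schwann-led genes were 5 semaphorins and 2 B-type plexins. Plxnb3, a plexin, was the one nearest to a marker of the class. It stood at 68.9, 60.8, 117 and 112 CPM, and the Schwann-like cells held 84.4%, 79.5%, 70.4% and 50% of its UMIs. In both vessel classes it had 0 UMIs except in the sham library, with 0.897 CPM in LEC-like and 1 in blood endothelial-like cells. Sema4f, a membrane semaphorin known to act in Schwann cells, was at 59.1, 45.1, 67.7 and 74.9 CPM. Both genes were thus found in glia and hardly in vessels.

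Sema3b stood at 157, 169.7, 456 and 312 CPM in Schwann-like cells. Sema5a, which carries thrombospondin repeats, was at 503, 529, 179 and 275 CPM. Sema4c was at 102, 111, 111 and 87.4 CPM. Sema6c was at 20.9, 19.9, 55.4 and 43.7 CPM on 36, 19, 9 and 7 UMIs. Plxnb1, the receptor of Sema4d, was at 29.5, 36.7, 43.1 and 37.5 CPM in Schwann-like cells, on 51, 35, 7 and 6 UMIs. Keratinocyte-like cells had 27.2, 25.7, 26.9 and 25.3 CPM, levels within the Schwann-like intervals in every library.

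The 2 kinds of Schwann-like cell carried different sets. There were 132, 75, 42 and 54 myelinating and 52, 49, 63 and 62 non-myelinating cells. In the diet libraries 66 and 39 cells led by Cytl1, Runx2 and Acan, genes of cartilage and bone, and 11 and 1 cells led by Clic5 and Prg4 of the synovial lining took neither name and are left out here, as is a sub-cluster described with the diet comparison. A myelinating sub-cluster of 57 and 38 diet cells was led within the class by hemoglobin genes. Sema5a was at 1296, 1371, 378 and 535 CPM in myelinating and at 28.9, 30.7, 11.3 and 12.5 in non-myelinating cells. Ephb1 was at 122, 147, 13.5 and 49.8 against 0, 0, 0 and 0 CPM. Sema3g, which also stood out in arterial-like cells, was at 276, 229, 203 and 87.2 against 46.9, 30.7, 11.3 and 12.5 CPM. Plxnb3 was at 128, 124, 176 and 162 against 46.9, 35.1, 67.9 and 62.6 CPM.

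Of the ligands named here, 4 were higher in the non-myelinating cells of both diet libraries. Sema4f was at 1.94, 0, 0 and 12.5 CPM in myelinating and 79.4, 118, 124 and 138 in non-myelinating cells, and Sema3e at 9.72, 6.54, 0 and 0 against 368, 417, 90.5 and 75.2. Ntn4, a laminin-binding netrin, had 0 UMIs in the myelinating cells of all 4 libraries and 227, 267, 67.9 and 75.2 CPM in non-myelinating cells. Sema3c was at 27.2, 39.3, 94.5 and 24.9 against 285, 241, 192 and 113 CPM. For all 8 genes the intervals of the 2 kinds were apart in both diet libraries. In LNR and sham the counts were small, and the intervals were apart in both libraries for Sema5a alone.

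Slit2, Slit3, Robo1 and Robo2 had their highest levels in connective tissue. Slit2, a secreted repellent, was led by osteoblast-like cells, at 1814, 1847, 99 and 101 CPM, with fibroblast-like cells at 405, 479, 92 and 89.8. The intervals of the 2 classes were apart in the diet libraries and overlapped in LNR and sham. Slit3 was led by dermal papilla and nail mesenchyme-like cells in the diet libraries (1284 and 1518 CPM) and by fibroblast-like cells in LNR and sham (157 and 155). Their receptors were led by the dermal papilla and nail mesenchyme-like cells in all 4 libraries, Robo1 at 707, 564, 156 and 106 CPM and Robo2 at 1477, 1390.5, 179.9 and 183. In LEC-like cells these 4 genes lay between 1.91 and 32.6 CPM. Slit1 was scarce, with 734 UMIs in all and no class above 4.1 CPM, and its highest class differed between libraries.

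The same mesenchyme led Epha4 (254, 228, 104 and 91.3 CPM), Efna2 (30.6, 19.9, 16.5 and 17.1) and Efnb3 (11, 8.16, 18.5 and 11.4). Osteoblast-like cells led the receptor Epha3, at 115, 195, 24.6 and 26.4 CPM, and its ligand Efna5, at 792, 826, 56.2 and 67.9. Unc5a was at 3.11, 2.84, 4.9 and 4.85 CPM in synovial lining-like cells, its highest class, and Sema5b at 24.8, 31.8, 3.71 and 14.6 in pericyte and smooth muscle-like cells. Sema3e, the ligand of Plxnd1, was at 187, 243, 89.5 and 90.6 CPM in fibroblast-like and 219, 301, 81.1 and 88.9 in synovial lining-like cells. Blood endothelial-like cells, which led Plxnd1, had 10.6, 3.17, 9.28 and 7.76 CPM of it, so that different classes led the ligand and the receptor. Schwann-like cells of the diet libraries carried both, with 184 and 206 CPM of Sema3e and 57.9 and 72.3 of Plxnd1. Sema3c was at 428, 341, 263 and 285 CPM in fibroblast-like cells.

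In the epidermis, granular keratinocyte-like cells led Efna3 (156, 179, 168 and 164 CPM), Epha1 (60.6, 66.9, 46.4 and 49.4), Ephb6 (46.6, 56.7, 97.8 and 84.7) and Sema4g (14.8, 20.9, 25.4 and 25.2). Efnb2 reached 615 and 551 CPM in the sebaceous-like cells of the diet libraries, where these and not the LEC-like cells led it. Among immune cells, dendritic-like cells led Sema4a (109, 119, 87 and 99.2 CPM), known from antigen-presenting cells, and Epha10 (13.1, 6.98, 23.2 and 24.3), which had 110 UMIs in all. Langerhans-like cells led Plxna1 (122, 167, 50.2 and 49 CPM), and macrophage-like cells Plxnb2 (112, 127, 109 and 114), a receptor of class 4 semaphorins.

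The Sema7a receptor Plxnc1 peaked in Langerhans-like cells of the diet libraries (510.0 and 562 CPM) and in dendritic-like cells of LNR and sham (46.4 and 81). Sema4d was highest in neutrophil-like cells of the SAR131675 library (289 CPM) and in monocyte-like cells of the others (352, 82.4 and 86.1). In both ligand and receptor pairs the partners were thus led by different classes. 

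The measured members not yet placed did not keep 1 leading class over the 4 libraries, and their highest class levels follow. Dermal papilla and nail mesenchyme-like cells led some of them in part of the libraries. Among these were the Eph receptors Epha7, at 95.4, 95.4, 29.8 and 26.4 CPM in its highest class, Ephb2, at 62.4, 76.7, 15 and 18.7, and Ephb3, at 21, 22, 15.5 and 24.7. So were the ligand Efnb1, at 119.9, 96, 124 and 89.4 CPM, the netrin Ntn3, at 5.24, 3.55, 5.06 and 3.8, and the netrin receptors Unc5c, at 69.1, 63.4, 9.02 and 11.9, and Unc5d, at 23.8, 24.4, 8.23 and 5.7. Some of these levels rested on few UMIs, such as 1 for Ntn3 in NK/T-like cells of LNR and 3 for Ephb2 in Schwann-like cells of sham. Efna4 was highest in keratinocyte-like or granular keratinocyte-like cells, at 35.5, 34.9, 21.5 and 25.3 CPM. Epha2 was highest in osteoblast-like cells of the diet libraries and blood endothelial-like cells of LNR and sham, at 74.3, 59.6, 45.4 and 44.3 CPM. The leader also differed between libraries for Epha5, at 28.6, 23.7, 55.4 and 95.6 CPM, Sema6d, at 231, 249.5, 96.2 and 156, and Ntn4, at 402, 432, 169.6 and 165. Ntn5, Plxna3 and Sema4b had no common leader either. Epha6 was highest in Schwann-like cells of the diet libraries, at 24.9 and 13.6 CPM, and was at 0 in all classes of LNR and sham.

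To ask which genes differed under VEGFR3 inhibition, each class of the SAR131675 diet library was set against the same class of the control diet library. A gene was measured with at least 50 UMIs over both libraries and counted as past the fold at a ratio of 1.5 or more in either direction. With 1 library each there was no test. Over all kept cells 2 of 64 guidance genes were higher in the SAR131675 library, beside 3.35% of all 20601 genes, and 0 lower, beside 3.44%. The share of higher genes was near the background. The higher genes were Efnb3 and Plxnb3, at log2 ratios of 0.70 and 0.60. Both were led by classes with more cells in the SAR131675 library, Efnb3 by the dermal papilla and nail mesenchyme-like (629 and 370 cells) and Plxnb3 by the Schwann-like cells (305 and 183). Within these classes the log2 ratios were 0.43 for Efnb3 and 0.18 for Plxnb3, and the part of the cell numbers was not tested.

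In LEC-like cells 25 guidance genes were measured, of which 2 were higher (background 3.68%) and 3 lower (4.87%). The LEC-led genes were not among them: their log2 ratios ran from -0.11 to 0.25. Plxnd1 was higher, at 55.6 against 35 CPM on 87 and 55 UMIs (log2 ratio 0.67, 0.17 to 1.18). Slit3 was higher too, at 32.6 against 17.2 CPM on 51 and 27 UMIs (log2 ratio 0.92, 0.22 to 1.65). The endothelial receptor Robo4 was lower, at 16.6 against 28.6 CPM on 26 and 45 UMIs (log2 ratio -0.78, -1.54 to -0.06). Sema3c, a secreted ligand, was lower, at 15.3 against 29.3 CPM on 24 and 46 UMIs (log2 ratio -0.93, -1.71 to -0.19). The other lower gene, Sema5a, had an interval that included 0. Called doublets made up 4.67% of the SAR131675 and 0.907% of the control diet cells. With these removed, the Slit3 ratio turned to -0.94. The ratios of Robo4 ran from -1.26 to -0.62 over the alternatives and those of Plxnd1 from 0.19 to 0.81. Those of Sema3c ran from -2.45 to -0.06, so that it came within the fold under some.

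In blood endothelial-like cells 4 of 40 were higher (background 3.2%) and 1 lower (2.61%). Sema3e was at 10.6 against 3.17 CPM on 78 and 17 UMIs (log2 ratio 1.74, 0.97 to 2.59). Sema3c was at 13.6 against 6.9 CPM on 100 and 37 UMIs (log2 ratio 0.98, 0.42 to 1.56). Sema5a was at 47.5 against 29.6 CPM (log2 ratio 0.68, 0.40 to 0.96) and Slit2 at 17.4 against 11 CPM (log2 ratio 0.66, 0.20 to 1.13). All 4 were higher in fibroblast-like than in blood endothelial-like cells of both libraries. The 10 fibroblast markers summed to 870.1 CPM in the blood endothelial-like cells of the SAR131675 library and to 535 in those of the control (9 of 10 higher, with none at 0 in either library). Their part in these 4 ratios was not tested. With called doublets removed, Sema3e was at a log2 ratio of -0.75 and Sema3c at -0.49. Slit2 then came to 0.10, and Sema5a to 0.24 with no upper limits on genes and UMIs, both within the fold. Unc5c, a netrin receptor, was lower, at 2.44 against 7.08 CPM on 18 and 38 UMIs (log2 ratio -1.54, -2.43 to -0.69). The 5 genes that this class led did not pass the fold, with log2 ratios from -0.43 (Robo4) to 0.02 (Plxnd1).

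In Schwann-like cells 5 of 37 were higher (background 6.87%) and 2 lower (5.11%). Plxna2, an A-type plexin, was at 59.7 against 18.9 CPM on 103 and 18 UMIs (log2 ratio 1.66, 0.93 to 2.47). Robo1 was at 72.4 against 27.2 CPM on 125 and 26 UMIs (log2 ratio 1.41, 0.79 to 2.08) and Epha4 at 37.1 against 21 CPM on 64 and 20 UMIs (log2 ratio 0.82, 0.08 to 1.63). Epha6 and Plxnb2 had intervals that included 0. The class held a sub-cluster of 44 SAR131675 and 19 control cells led by Dcn and the keratins Krt14 and Krt5, which took neither Schwann name and held 99 and 13 of these Robo1 UMIs. In it the keratinocyte markers summed to 18514 and 13668 CPM.

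Without that sub-cluster, a step chosen after seeing the data, Plxna2 stood at 38.1 against 13.1 CPM on 47 and 10 UMIs, a log2 ratio of 1.54 (0.54 to 2.69). Robo1 then had a ratio of 0.31 (-0.70 to 1.39) and Epha4 of 0.31 (-0.92 to 1.65). Genes past the fold differed in turn: Slit3 came to 0.68 (0.22 to 1.15) and Ntn1 to 0.70 (-0.16 to 1.63), where the whole class had 0.53 and 0.24, and the interval of Epha6 then left out 0, at 0.97 (0.04 to 1.99). With the sub-clusters led by cartilage and synovial genes left out as well, 184 and 124 cells stayed. Plxna2 was then at 1.69 (0.28 to 3.44) on 24 and 5 UMIs, Slit3 at 0.76 (0.27 to 1.27) and Robo1 at 1.17 (-0.79 to 3.67) on 10 and 3 UMIs. With no upper limits on genes and UMIs, the Plxna2 ratio of the whole class fell to 0.59, barely past the fold, and with called doublets removed it was 1.03 and that of Robo1 0.03. Epha4 then changed sign, to -0.18.

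In the whole class the keratinocyte markers summed to 6752 CPM in the SAR131675 and 4009 in the control library (13 of 14 higher, with none at 0 in either library), and the macrophage markers to 211 and 18.9 (9 of 10 higher, with 1 and 9 at 0). The part of the macrophage markers was not tested. The lower genes were the ligands Ntn4, at 86.3 against 140.4 CPM on 149 and 134 UMIs (log2 ratio -0.70, -1.05 to -0.35) and Sema3d, at 57.9 against 105 CPM on 100 and 100 UMIs (log2 ratio -0.85, -1.27 to -0.44). In the named Schwann-like cells alone Ntn4 was at -0.52 (-1.05 to 0.01). Sema3d was there at -2.35 (-3.80 to -1.09), but on 7 and 24 UMIs, since 93 and 76 of its UMIs lay in the sub-clusters without a name. With no upper limits on genes and UMIs, Ntn4 in the whole class was at -0.48 and Sema3d at -0.09, both within the fold. The 7 Schwann-led genes did not pass the fold, with log2 ratios from -0.31 to 0.39.

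**Figure D4:**
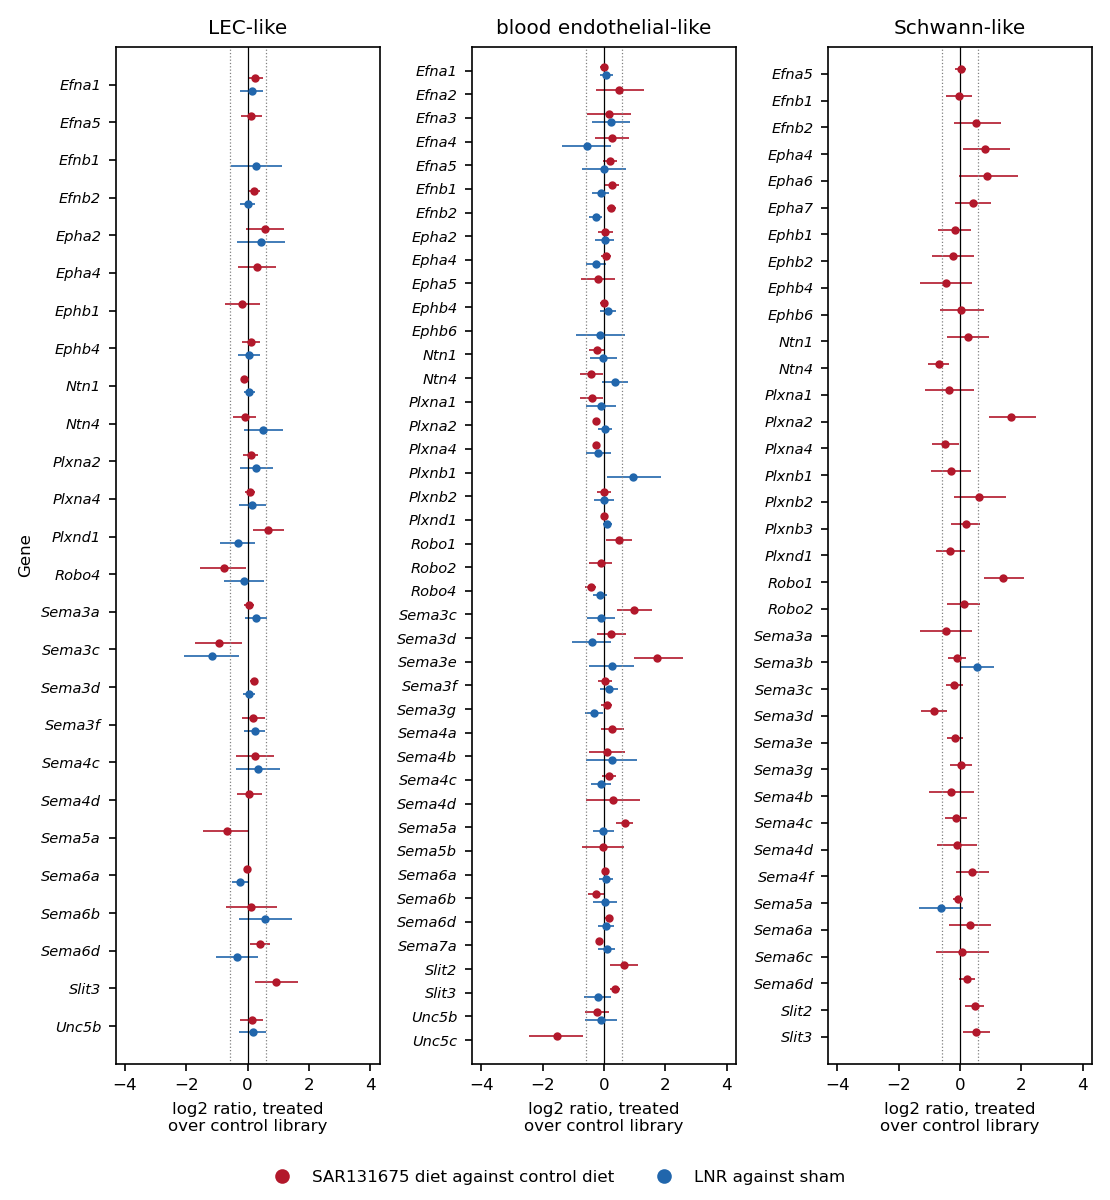
Log2 ratio of CPM, treated over control library (horizontal axis), of guidance genes (vertical axis) in LEC-like, blood endothelial-like and Schwann-like cells, for SAR131675 diet against control diet and LNR against sham (color), with exact 95% intervals and the 1.5-fold limits as dotted lines. Sema3c lies below the lower limit in LEC-like cells in both pairs.

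In fibroblast-like cells 0 of 54 were higher (background 2.76%) and 0 lower (2.76%). In keratinocyte-like cells 6 of 53 were higher (background 4.07%) and 0 lower (3.13%), all of them scarce genes there. Slit2 was at 4.82 against 2.51 CPM (log2 ratio 0.94, 0.78 to 1.11) and Ntn1 at 3.5 against 1.95 CPM (log2 ratio 0.84, 0.65 to 1.03). Unc5c, Ntn3 and Sema3b had log2 ratios of 1.57, 1.5 and 0.84, and the interval of Epha3 included 0. Over the alternatives Slit2 ran from 0.52 to 1.05, Ntn1 from 0.49 to 1.11 and Unc5c from 0.37 to 1.79, so that each came within the fold under some, whereas Ntn3 and Sema3b stayed past it. All 6 were higher in fibroblast-like than in keratinocyte-like cells of both libraries. The fibroblast markers summed to 121 and 101 CPM in the keratinocyte-like cells (9 of 10 higher, with none at 0 in either library), and their part was not tested.

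Synovial lining-like and macrophage-like cells were singled out after their values were seen. In synovial lining-like cells Sema3d was at 265 against 506 CPM on 1792 and 2672 UMIs (log2 ratio -0.93, -1.02 to -0.85). The same class had 206 and 231 CPM of Sema3d in LNR and sham, a log2 ratio of -0.17. In all, 7 of 36 genes were higher in this class (background 4.14%) and 3 lower (4.13%). The higher genes were Efna1, Efna3, Efna4, Efnb1, Ephb2, Sema6d and Slit2. Of these Sema6d was at 9.47 against 4.36 CPM on 64 and 23 UMIs (log2 ratio 1.12, 0.41 to 1.87), with 1.05 to 1.46 over the alternatives. With no upper limits on genes and UMIs Efna3 changed sign, to -0.23, as did Slit2, to -0.11. Efna1, Efna4 and Efnb1 came within the fold under some alternatives, down to log2 ratios of 0.18, 0.34 and 0.45. So did the lower genes Epha7 and Sema4a, at -0.54 and -0.20. In macrophage-like cells 8 of 29 were higher (background 4.3%) and 0 lower (2.64%), among them Slit3 at 15.1 against 2.67 CPM on 96 and 13 UMIs (log2 ratio 2.50, 1.66 to 3.46) and Efnb2 at 21.6 against 8.23 CPM on 137 and 40 UMIs (log2 ratio 1.39, 0.88 to 1.94). Over the alternatives the Slit3 ratio ran from 0.72 to 2.84 and that of Efnb2 came to 0.47, within the fold, with called doublets removed. That step also changed the sign of 4 other higher genes, Efna3, Epha4, Robo2 and Sema3c, at -0.36, -1.20, -0.59 and -0.88. The fibroblast markers summed to 199 and 87.4 CPM there (10 of 10 higher, with none at 0 in either library) and the keratinocyte markers to 3908 and 2459 (11 of 14 higher, with none at 0 in either library), and their part was not tested.

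Lymph node removal was the surgical arm of the study, and the LNR library was set against the sham library in the same way. Over all kept cells 0 of 60 guidance genes were higher (background 2.4%) and 1 lower (1.28%), Sema5b at a log2 ratio of -0.80. In LEC-like cells 0 of 20 were higher (background 2.91%) and 1 lower (3.36%). The lower gene was Sema3c, at 14.1 against 31.4 CPM on 18 and 35 UMIs (log2 ratio -1.16, -2.06 to -0.30). Over the alternatives its ratio ran from -1.16 to -0.03. The LEC-led genes had log2 ratios from -0.24 to 0.23 and none passed the fold.

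Blood endothelial-like cells had 1 of 33 higher (background 1.7%) and 0 lower (2.38%), namely Plxnb1 at 8.76 against 4.51 CPM on 34 and 18 UMIs (log2 ratio 0.96, 0.09 to 1.87), with 0.58 to 1.70 over the alternatives. In Schwann-like cells only 2 guidance genes were measured. Sema3b had a log2 ratio of 0.55 and did not pass the fold (background 4.49%), and Sema5a was lower (background 2.96%) at -0.62 with an interval that included 0. In fibroblast-like cells 1 of 50 was higher (background 1.46%), Efnb3 with an interval that included 0, and 0 lower (1.04%).

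In keratinocyte-like cells 0 of 45 were higher (background 0.85%) and 3 lower (5.18%). Ntn1 was at 1.92 against 4.1 CPM on 130 and 331 UMIs (log2 ratio -1.10, -1.40 to -0.80). Sema3a was at 0.295 against 0.707 CPM on 20 and 57 UMIs (log2 ratio -1.26, -2.08 to -0.50) and Sema3b at 0.398 against 0.732 CPM on 27 and 59 UMIs (log2 ratio -0.88, -1.59 to -0.20). The fibroblast markers summed to 218 CPM in the LNR and 528 in the sham keratinocyte-like cells (0 of 10 higher, with none at 0 in either library), and their part was not tested. A cluster of the class whose leading genes included Krt71 and Krt25, keratins of the inner root sheath, had 4 LNR and 377 sham cells. Without it, a step chosen after seeing the data, Ntn1 was at 1.89 against 1.88 CPM (log2 ratio 0.0039, -0.35 to 0.36), Sema3a at a log2 ratio of -0.77 and no longer with 50 UMIs, and Sema3b at -0.48, within the fold. Then 0 of 43 measured genes were lower (background 1.44%) and 1 higher (1.4%), Slit2 at 1.19 against 0.708 CPM (log2 ratio 0.76, 0.24 to 1.28). In osteoblast-like cells, singled out after their values were seen, 5 of 29 were lower (background 3.89%) and 1 higher (3.93%). The ratios of Sema3a (-2.00) and Epha7 (-1.35) there changed sign under 4 other ways of processing. Those of Epha5, also lower, ran from -2.00 to -0.06 over the alternatives. Those of the higher gene, Sema3c, ran from 0.47 to 1.85, so that both came within the fold under some.

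Sema3c was the 1 guidance gene past the fold in the same direction in both pairs in LEC-like cells, of 19 measured in both, beside 0.603% of all genes, and 0 went opposite ways (0.258%). Over the other 19 classes 2 of 299 ratios were past the fold the same way (0.346% of all), Robo2 in macrophage-like and Slit3 in neutrophil-like cells. Another 4 went opposite ways (0.508%), Ntn1 and Sema3b in keratinocyte-like and Ntn1 and Sema3c in neutrophil-like cells. The macrophage-like Robo2 ratio of the diet pair ran from -1.04 to 2.02 over the alternatives. Without the sham-only cluster, the keratinocyte-like Ntn1 and Sema3b ratios of LNR against sham came within the fold. In LEC-like cells the keratinocyte markers were also lower in both pairs, summing to 3497 against 5586 CPM in the diet pair (4 of 14 higher, with none at 0 in either library) and to 4019 against 5224 in LNR and sham (1 of 14 higher, with none at 0 in either library). Keratinocyte-like cells had 87.1, 79.2, 39.3 and 43.3 CPM of Sema3c. Fibroblast-like cells had more Sema3c than keratinocyte-like cells in every library, as given above. The part of keratinocyte or fibroblast transcripts in the Sema3c ratios was not tested. Over the alternatives the Sema3c ratio ran from -2.45 to -0.06 in the diet pair and from -1.16 to -0.03 in LNR and sham, so that its place past the fold depended on the processing.

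Other genes of the pathway were followed from 2 lists, given here for all kept cells, the 2 vessel classes and the Schwann-like cells. Over all kept cells 13 co-receptors and other cues were measured in the diet pair, 2 higher (Dcc and Draxin; background 3.35%) and 0 lower (3.44%). In LNR and sham 11 were measured, 1 higher (Draxin; 2.4%) and 0 lower (1.28%). Of 26 signaling genes 0 passed the fold there in either pair, beside the same backgrounds. Of 13 co-receptors and other cues, LEC-like cells had 7 measured, 0 higher (background 3.68%) and 0 lower (4.87%) in the diet pair, and 7 measured, 0 higher (background 2.91%) and 0 lower (3.36%) in LNR and sham. Blood endothelial-like cells had 9 measured, 0 higher (background 3.2%) and 1 lower (Flrt3; 2.61%) in the diet pair, and 9 measured, 0 higher (background 1.7%) and 0 lower (2.38%) in LNR and sham. Schwann-like cells had 7 measured, 1 higher (Flrt2; background 6.87%) and 0 lower (5.11%) in the diet pair, and 1 measured, 1 higher (L1cam; background 4.49%) and 0 lower (2.96%) in LNR and sham. Of 26 genes of intracellular guidance signaling, LEC-like cells had 19 measured, 1 higher (Rnd1; background 3.68%) and 1 lower (Farp2; 4.87%) in the diet pair, and 14 measured, 0 higher (background 2.91%) and 0 lower (3.36%) in LNR and sham. For the same list blood endothelial-like cells had 22 measured, 1 higher (Srgap3; background 3.2%) and 1 lower (Mical2; 2.61%) with SAR131675, and 19 measured, 0 higher (background 1.7%) and 0 lower (2.38%) with LNR. Schwann-like cells had 20 measured, 2 higher (Vav3 and Grip1; background 6.87%) and 1 lower (Mical1; 5.11%) with SAR131675, and 2 measured, 0 higher (background 4.49%) and 0 lower (2.96%) with LNR. Grip1 was led by the keratinocyte-like cells, at 478 and 499 CPM in the diet libraries, and was among the leading genes of the Schwann-like sub-cluster led by keratins.

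**Figure D5:**
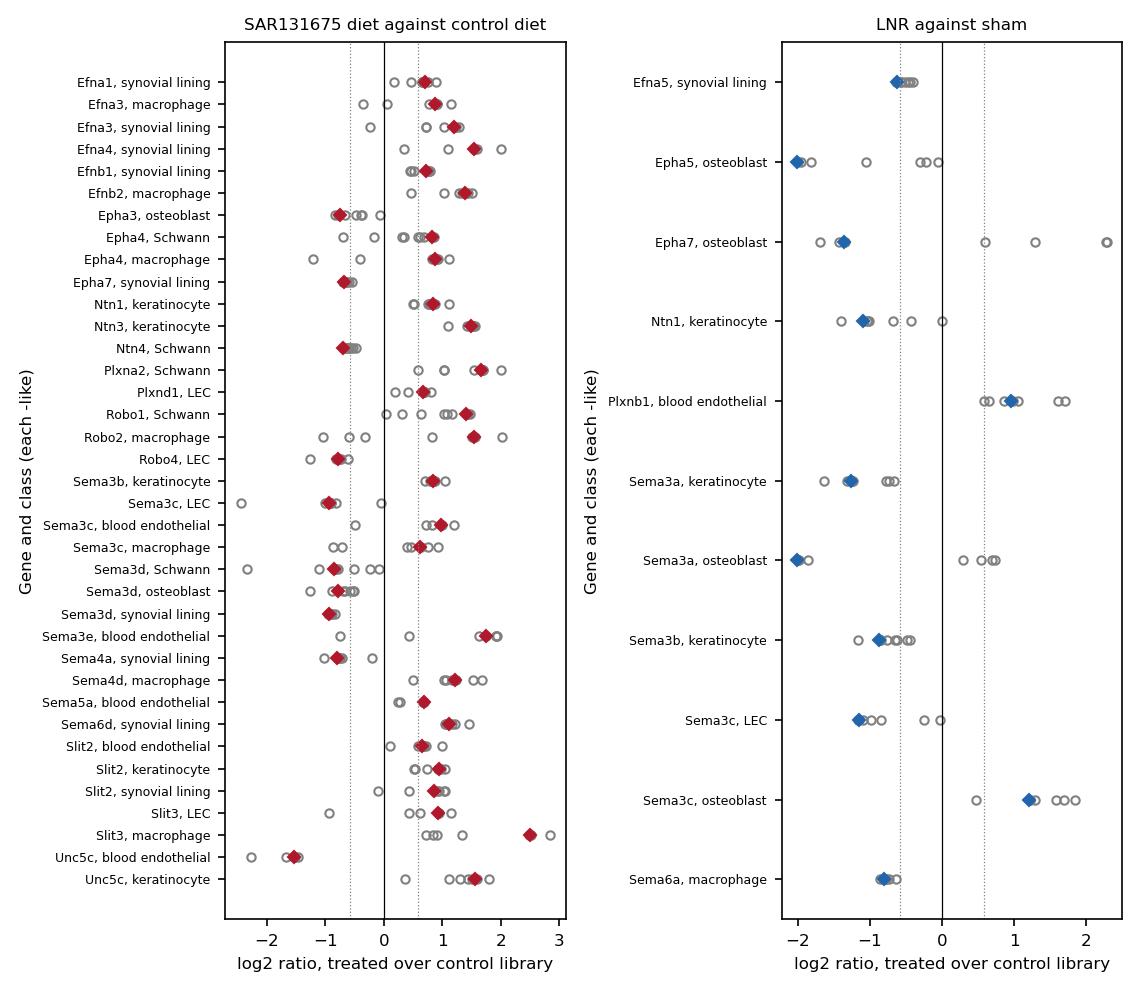
Log2 ratio, treated over control library (horizontal axis), of single guidance genes in single classes (vertical axis), as reported (diamonds) and under the alternative ways of processing (open circles), with the 1.5-fold limits as dotted lines. Sema3d in synovial lining-like cells stays well beyond the 1.5-fold limit in the diet pair and Plxna2 in Schwann-like cells comes down to it under 1 alternative, whereas Sema3a and Epha7 in osteoblast-like cells change sign in LNR against sham.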

How the data were processed

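The authors aligned the reads with Cell Ranger and deposited filtered matrices of UMI counts per gene and barcode, with GRCm39 as the build per the labels. The labels give Cell Ranger 6.1.2 for all libraries, and the headers of the diet matrices give 8.0.1. The totals were 168507188 to 585284877 UMIs per library. Whether reads in introns were counted is not given in the sources used here. A cell was kept if it had 200 to 5500 genes, no more than 30000 UMIs and a mitochondrial share of 10% or less, which left 19827 to 29076 per library.

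The normalization and integration of the study were not repeated. The 2 libraries of a pair were clustered together, without the guidance genes (2000 variable genes, 30 principal components, 20 neighbors, Leiden resolution 0.7), with Python 3.11.15, scanpy 1.11.5 and igraph 0.11.9. Clusters were named from marker lists by a score of at least 0.3, with the second best below 0.75 of it and 3 markers detected in at least 5% of the cells, a rule chosen after the clusters were seen. Sub-clusters used a resolution of 0.5, and one took no name where 2 or more of its 10 leading genes, and more than of its own markers, marked other classes, hemoglobin genes aside. Doublets were left in. Scrublet, run with an expected share of 15.9% to 23.3%, called 4.67%, 0.907%, 7.41% and 6.97%, with a separate cutoff in each library. Removal was an alternative, and in the diet pair it took out a larger share of the SAR131675 than of the control cells. CPM were computed from the UMIs summed over a class in a library, with exact Poisson intervals and exact conditional intervals of the ratio (scipy 1.17.1), which cover counting error only. The ratio script was tested on simulated data. With 1 library per group there was no test, and p-values were not computed.

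The members and lists were chosen with earlier results of these data known. Named with values were members with at least 200 UMIs and a highest class level at least 3 times the median class level in all 4 libraries, a set of ligand and receptor pairs, and members past the fold with an interval that left out 0 in 5 classes. Genes outside this rule, the values in other classes and in sub-classes were chosen after their values were seen. Alternatives were other limits on cells, doublet removal, resolutions of 0.4 and 1.2 and each library clustered alone. Others were the mean of single-cell CPM, TMM scaling, 20 or 200 UMIs and a fold of 2. The UMI limits and the fold of 2 were applied to counts of genes and not to single-gene ratios.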

Additional observations from a re-analysis of the deposited data

How the results depend on the processing

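Each library was 1 replicate, so that no replicate could be left out. No paired analysis was possible because each group had 1 library and no test was made. The count of guidance genes with 1 leading class was 36, and 31 to 36 under the alternatives. In LEC-, blood endothelial-, Schwann-, fibroblast- and keratinocyte-like cells together, 23 of 209 (7.3%) measured ratios were past the fold in the diet pair and 7 of 150 (4.66%) in LNR against sham, with the share among all genes in brackets. With at least 20 UMIs the counts were 40 of 245 (12.3%) and 19 of 189 (9.81%), with at least 200 UMIs 5 of 145 (2.82%) and 1 of 98 (1.54%), and 6 of 209 (1.55%) and 3 of 150 (1.34%) with a fold of 2. The LNR count was also 11 of 158 (4.66%) with no upper limits on genes and UMIs, 12 of 140 (5.01%) with called doublets removed and 13 of 150 (7.01%) with the mean of single-cell CPM.

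Of 48 single-gene ratios, 10 kept their direction past the fold under every alternative run on them, and 24 of 349 alternative values changed sign. Scaling by TMM turned none. The alternative UMI limits and the alternative fold were not applied to single-gene ratios, so the 10 are not shown to hold under those. Sema3a in keratinocyte-like cells of LNR against sham is among the 10. Without the sham-only cluster it kept its ratio past the fold but no longer had enough UMIs to be measured. With called doublets removed, the diet pair gave Slit3 in LEC-like cells at -0.94, Sema3c and Sema3e in blood endothelial-like cells at -0.49 and -0.75, Epha4 in Schwann-like cells at -0.18, and Efna3, Epha4, Robo2 and Sema3c in macrophage-like cells at -0.36, -1.20, -0.59 and -0.88. At a resolution of 0.4 the last 3 were -0.40, -1.04 and -0.72. With no upper limits, Robo2 in macrophage-like cells was -0.33, and Efna3 and Slit2 in synovial lining-like cells were -0.23 and -0.11. With the mean of single-cell CPM, Epha4 in Schwann-like cells was -0.70. In LNR against sham, Ntn1 in keratinocyte-like cells was 0.0039 without the sham-only cluster. In the same pair, Epha7 and Sema3a in osteoblast-like cells were 0.60 and 0.74 with no upper limits, 2.27 and 0.54 with doublets removed, 2.28 and 0.69 at a resolution of 0.4 and 1.29 and 0.29 with each library clustered alone. The cause was not tested. The steps without the sham-only cluster and without Schwann-like sub-clusters were chosen after seeing the data. Small classes limited the depth: Schwann-like cells of LNR and sham left 2 guidance genes with enough UMIs.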

Other observations

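Fibroblast-like cells were not uniform in their guidance ligands. They fell into clusters made without the guidance genes, which were singled out here after their values were seen. In the diet libraries a cluster led by Coch and Dkk2 had 583 and 738 CPM of Sema3a and 993 and 1305 of Slit2 in SAR131675 and control, whereas a cluster led by Myoc and Pi16 had 47.8 and 35.6 and 204 and 189.7. In LNR and sham a cluster led by Mfap4 and Lrrc15 had 129.7 and 169.7 CPM of Sema3a and 285 and 299 of Slit2, and one led by Pi16 and C3 had 10.2 and 11.2 and 42.1 and 38.2. Sema3e had the opposite order, with 24.4 and 35.4 CPM in the Coch and 257 and 326 in the Myoc cluster of the diet libraries, and 7.97 and 11.6 in the Mfap4 and 117 and 118 in the Pi16 cluster of LNR and sham. A cluster led by Rbp4 and Eln in LNR and sham had 433 and 448 CPM of Sema3d, beside 44.5 and 44.8 in the Pi16 cluster.

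Keratinocyte-like clusters also differed. Efnb2 was at 400.2 and 435 CPM in a cluster of the diet libraries led by Defb6 and Cst6, and at 311 and 312 in the cluster of LNR and sham with the same leading genes. Sema3e reached 319.6 and 364 CPM in a diet cluster led by Lgr5, a stem cell gene of the hair follicle, beside 33.5 and 39.6 in one led by Ccl27a and Sostdc1. These cluster levels are given as values, with 1 library per condition.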
